A study of Mus musculus with 6 samples.

Results

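The genes described here build the last steps of mitochondrial energy conversion: complex III with its electron carrier cytochrome c, complex IV, and ATP synthase. They were chosen by symbol. Taken were all genes of the array annotation named Uqcr, Cox followed by a number, or Atp5, together with Cyc1 and Cycs, and without the cytochrome c oxidase genes Cox4i1, Cox4i2, Cox6a1, Cox6a2, Cox7a1, Cox7a2, Cox7a2l, Cox8a and Cox8b. The rule itself used no measured value, but the genes were chosen with earlier results of these data known. It gave 44 genes with 53 probes, of 16593 genes and 25697 probes on the array, and 37 of the 44 genes were above background and could be tested. By their known roles the 44 genes comprised 9 of complex III, 1 for cytochrome c, 9 subunits of complex IV, 9 assembly factors of complex IV and 16 of ATP synthase.

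Expression was measured with Illumina mouse bead arrays in the gastrocnemius (GA), a mixed but mostly fast calf muscle. The male mice were 12 weeks old when anesthetized for the operation, and their strain and genotype are not given in the sources used here. For the denervated group (3 samples) 2 mm of the sciatic nerve of the left leg had been cut out 14 days earlier, and the control group (3 samples) was the GA of the right leg, whose nerve was left in place. A control leg thus belonged to an operated animal, and the number of mice behind the samples and whether a sample was pooled are not given either, so that the p-values below measure only the spread between these samples. The comparison asks how the loss of the nerve, a model of muscle wasting, shifted the mRNA levels of these genes.

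Complex III takes electrons from reduced ubiquinone and passes them to cytochrome c, complex IV hands them on to oxygen, and both pump protons across the inner mitochondrial membrane. ATP synthase lets the protons flow back through a rotating ring of c subunits and uses the rotation to make ATP in its F1 head. A few core subunits of complexes III and IV and of ATP synthase are encoded by mitochondrial DNA and are not among these genes. The remaining subunits, and the factors that insert heme and copper into complex IV, are nuclear genes, and muscle fibers, in particular the oxidative ones, are rich in their mRNA.

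Promoter sequence is shown for 8 genes so that genes of different roles can be read side by side: the carrier, 1 lower gene of complex III and 1 complex IV subunit gene, both chosen because they held a match, the complex IV assembly factors that moved farthest in each direction, and the 3 genes for the c subunit of ATP synthase. The sequences are from RefSeq on mouse build GRCm38.p6, run 5′ to 3′ on the gene's strand from 130 bases before the annotated start to 20 bases after it, and carry in capitals each match, on either strand, to a motif of a factor known to act on such genes. The motifs searched were GCATGCGC for NRF1, CCGGAAG for GABP, TCAAGGTCA and its inner part AAGGTCA for the estrogen-related receptors (ERR), and AAGATGGCG for YY1.
Uqcr11, complex III, lower, chr10:80406802-80406951, minus strand: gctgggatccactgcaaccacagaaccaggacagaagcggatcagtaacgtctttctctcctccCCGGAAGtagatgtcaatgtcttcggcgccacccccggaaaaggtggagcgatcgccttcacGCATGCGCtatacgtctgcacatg
Cycs, cytochrome c, lower, chr6:50566550-50566699, minus strand: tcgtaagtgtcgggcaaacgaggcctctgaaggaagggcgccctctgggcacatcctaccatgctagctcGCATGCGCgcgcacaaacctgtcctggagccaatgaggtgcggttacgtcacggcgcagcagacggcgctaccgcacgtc
Cox6b1, complex IV subunit, lower, chr7:30626095-30626244, minus strand: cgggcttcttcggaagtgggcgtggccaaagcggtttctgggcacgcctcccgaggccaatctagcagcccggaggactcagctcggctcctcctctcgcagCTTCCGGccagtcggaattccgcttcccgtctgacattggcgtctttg
Cox10, complex IV assembly, lower, chr11:64079453-64079602, minus strand: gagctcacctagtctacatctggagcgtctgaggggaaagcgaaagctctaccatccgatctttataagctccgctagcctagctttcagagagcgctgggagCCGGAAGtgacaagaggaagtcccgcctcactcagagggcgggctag
Cox19, complex IV assembly, higher, chr5:139345147-139345296, minus strand: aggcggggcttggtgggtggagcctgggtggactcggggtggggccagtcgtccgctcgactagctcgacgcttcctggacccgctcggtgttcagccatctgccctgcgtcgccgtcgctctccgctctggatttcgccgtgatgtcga
Atp5g1, ATP synthase c ring, lower, chr11:96075612-96075761, minus strand: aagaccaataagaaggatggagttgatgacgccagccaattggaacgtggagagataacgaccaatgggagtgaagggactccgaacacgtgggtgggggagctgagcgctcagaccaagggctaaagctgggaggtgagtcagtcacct
Atp5g2, ATP synthase c ring, not called, chr15:102671028-102671177, minus strand: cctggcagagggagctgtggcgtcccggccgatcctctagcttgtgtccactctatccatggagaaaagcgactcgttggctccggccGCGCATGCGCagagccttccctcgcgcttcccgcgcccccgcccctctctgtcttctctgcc
Atp5g3, ATP synthase c ring, lower, chr2:73911307-73911456, minus strand: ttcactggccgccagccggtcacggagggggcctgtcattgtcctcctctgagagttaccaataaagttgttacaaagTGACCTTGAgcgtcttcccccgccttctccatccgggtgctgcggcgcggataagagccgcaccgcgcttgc
In Cycs and Uqcr11 the capitals are an NRF1 match, which began 60 and 4 bases before the start, and Uqcr11 also held a GABP match. In Cox6b1 and Cox10 they are a GABP match 28 and 27 bases before the start. The 10 capitals in Atp5g2 are 2 overlapping NRF1 matches, 1 on each strand, and those in Atp5g3 are the longer ERR motif on the opposite strand, 52 bases before the start. Cox19 and Atp5g1 held no match in this stretch.

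Over windows of 300 bases, from 250 before to 50 after the start, 34 of the 44 genes matched the RefSeq table. The 10 unmatched genes were Uqcrc2, Cyc1, Uqcrb, Uqcrq, Cox6c, Cox8c, Cox17, Cox18, Atp5a1 and Atp5mpl. A GABP match was found in 12 of the 34 windows (35.3%) and in 9.12% of 27025 gene windows, counting 1 window a gene. An NRF1 match was found in 6 (17.6%) against 2.8% of all, the shorter ERR motif in 4 (11.8%) against 4.66%, the longer one in 1 (2.94%) against 0.407%, and a YY1 match in 2 (5.88%) against 1.49%. The windows of 1 complex are few, and differences between complexes were not tested. The NRF1 matches fell to complex III (2 of 5 windows), cytochrome c and ATP synthase (3 of 14), none to the 14 complex IV windows, and the shorter ERR motif was met in 4 of the 14 ATP synthase windows and in no other. Of the 7 windows of complex IV assembly factors 5 held a GABP match, and of the 7 windows of complex IV subunits only that of Cox6b1 did, with no match to any of the motifs in the other 6. The windows of these genes were richer in G and C, with a median of 57.8% against 52.7%, and whether that moved the shares was not tested. A match is a run of letters and no measure of binding.

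Each array had a median of 39 or 40 beads per probe and 11551 to 12785 probes above background, and replicates of a group correlated at 0.9878 to 0.9939. Before normalization the denervated arrays were brighter, with an upper signal (95th percentile) of 4000 to 4048 against 2896 to 3022, and after quantile normalization the median change of all 8740 tested genes was 0.00 on the log2 scale. All arrays shared a chip on which each group had its own run of positions, and position and group cannot be told apart. The tissue was checked against defining markers. All 10 markers of muscle fibers were above background with a summed normalized intensity of 482520 to 508830 in control and 481540 to 490570 in denervated muscle. These sums are dominated by probes near the ceiling of the scanner (Acta1, Actn3 and Ckm had a signal over 60000 on all 6 arrays) and cannot show a stable level. In the same list Casq1 fell by 1.29 and Des rose by 0.57 on the log2 scale. The 4 neuronal markers Nefl, Nefm, Snap25 and Syt1 were above background on no array. Of 10 macrophage markers 8 were measured and all 8 rose, with a summed intensity of 2880 to 3059 in control and 7059 to 8861 in denervated muscle, while Fcer1g and Ptprc were above background on no array. Slow fiber markers went the other way, with 5 of 7 lower, Tnnt1 higher by 0.56 and sums of 107280 to 118720 against 60702 to 66009. Endothelial markers fell in 5 of 7 with none higher, at a median of -0.52, and summed to 9723 to 12815 in control and 7825 to 8359 in denervated muscle, with Kdr above background on no array. The 3 erythrocyte markers had a median of -1.23, of which Alas2 passed the test, with sums of 70347 to 79847 against 26433 to 76534. The part of these shifts in the results below was not tested, and in a whole muscle fewer cells of a type and less RNA per cell cannot be told apart.

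Most of the genes were lower in denervated muscle. Of the 37 tested genes 29 fell, 3 rose and 5 did not pass the test (limma, adjusted p under 0.05 over all probes), where over all tested genes 21.6% fell, 22.2% rose and 43.8% were called in either direction. All 3 denervated values lay below all 3 control values in 31 of the 37, against 26.8% of all genes. The median log2 fold change was -0.46 for the 37 genes, which is 1.38-fold, so that the falls were common and modest: only Cycs, Cyc1, Cox10, Uqcrc1 and Atp5a1 fell by more than 2-fold. Without any normalization between the arrays, 17 of the 37 genes were called lower and 5 higher.

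The medians of the complexes lay at different values. Complex III had the lowest median of the 3 complexes at -0.65 and all 7 tested genes fell. The subunits of complex IV had a median of -0.53 with 5 of 6 lower, and ATP synthase had a median of -0.44 with 13 of 15 lower. The complex IV value leaves out 9 isoform genes by symbol, whose own median was -0.61. The order of the medians thus rests on a part of complex IV. The 8 tested assembly factors of complex IV taken by symbol had 3 genes lower, 3 higher and 2 not called, so that their median of -0.07 lies between genes that moved in opposite directions. All tested genes also divided, with 21.6% lower, 22.2% higher and a median of -0.003. The 11 other tested assembly factors of complex IV had a median of -0.43 with 6 lower and 1 higher, against the same 21.6% and 22.2% of all tested genes. No gene of complex III, of the complex IV subunits or of ATP synthase rose.

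**Figure D1:**
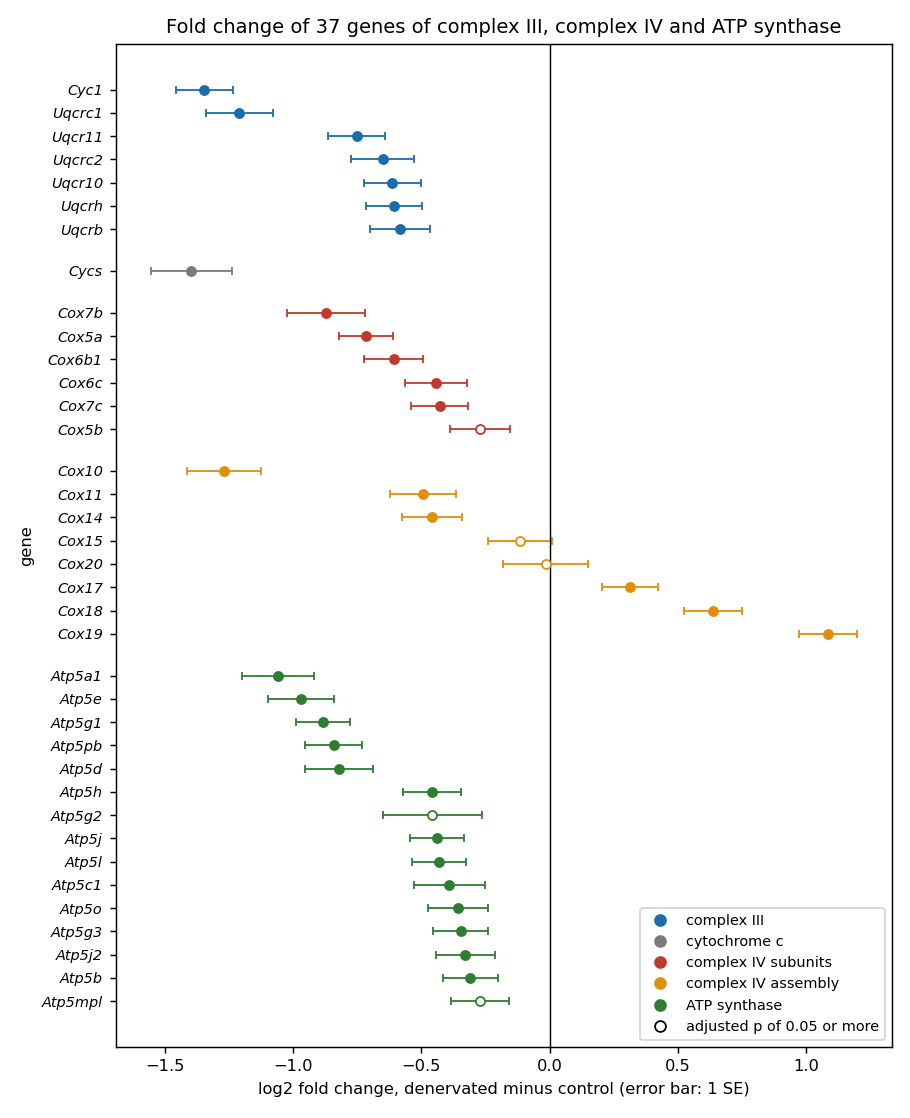
Log2 fold change of the 37 tested genes, denervated minus control, with 1 standard error, grouped by complex and sorted within it; open symbols did not pass the adjusted p of 0.05. Points left of the line at 0 are lower in denervated muscle, and only Cox17, Cox18 and Cox19 pass the test to its right.

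The same order was seen on each denervated array when every gene was expressed as its deviation from its own control mean. The median deviation of complex III was -0.66, -0.73 and -0.69 on denervated arrays 1 to 3. It was -0.53, -0.64 and -0.49 for complex IV subunits and -0.47, -0.49 and -0.47 for ATP synthase. The control arrays stayed between -0.08 and 0.06 for these 3 groups, and all genes together between 0.00 and 0.01 on every array. The median of complex III minus that of ATP synthase was -0.21, that of complex III minus complex IV subunits -0.13 and that of complex IV subunits minus ATP synthase -0.09. These distances have no test, since genes of a complex are not replicates, and the smallest of them changed sign (0.0085) when the filter on dim probes was dropped. Without denervated replicate 3 the distance between complex III and complex IV subunits was -0.083 and that between complex IV subunits and ATP synthase -0.13.

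**Figure D2:**
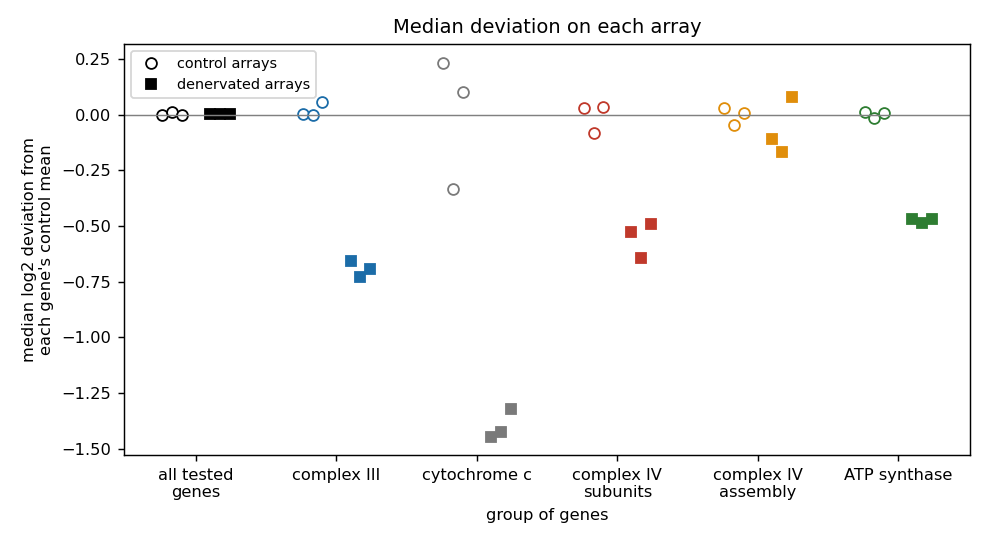
Median deviation of each group of genes from its control means on each array, in log2 units; open circles are control arrays and squares denervated arrays. Complex III lies at -0.73 to -0.66, complex IV subunits at -0.64 to -0.49 and ATP synthase at -0.49 to -0.47 on the denervated arrays, while the assembly factors lie on both sides of 0.

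In complex III the catalytic subunit cytochrome c1 and a core protein fell most. Cyc1, which holds the heme that gives the electron to cytochrome c, measured 11.96, 12.04 and 12.08 in denervated and 13.29, 13.38 and 13.44 in control muscle (normalized log2 intensity). The groups lay far apart against the spread within each, and the change was -1.35 ± 0.11 (log2 fold change ± SE, n = 3 per group, adjusted p = 2.91e-05). Uqcrc1, core protein 1 on the matrix side, measured 12.82, 12.69 and 12.65 against 13.74, 13.93 and 14.12. Its lowest control value was above all denervated values, and it fell by 1.21 ± 0.13 on the log2 scale (adjusted p = 0.000152). Uqcrc2, the partner core protein, fell less, by 0.65 ± 0.12 (adjusted p = 0.0029).

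The small supernumerary subunits of complex III, which surround the catalytic core, moved in a narrow band. Uqcr11 measured 14.35, 14.28 and 14.15 in denervated and 15.02, 15.01 and 15.01 in control muscle, and fell by 0.75 ± 0.11 (adjusted p = 0.00078). Uqcr10, Uqcrh, the acidic hinge protein that helps cytochrome c dock, and Uqcrb, a ubiquinone-binding subunit, fell too, with log2 fold changes of -0.61, -0.61 and -0.58. The second probe of Uqcr10 gave -0.53. The groups did not overlap for any of the 7 genes. The Rieske iron-sulfur protein gene Uqcrfs1 and Uqcrq, a small subunit next to cytochrome b, were above background on no array, so that complex III was described without them.

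Cytochrome c itself, the soluble carrier between complexes III and IV, had the lowest log2 fold change of all 37 genes. Cycs measured 8.66, 8.68 and 8.78 in denervated and 10.34, 9.77 and 10.21 in control muscle. Control replicate 2 was the lowest control value and was still well above the highest denervated one. The change was -1.40 ± 0.16 (adjusted p = 0.000184), and -1.50 by its second probe, which read 7.98, 7.58 and 7.78 against 9.19, 9.24 and 9.42.

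The complex IV subunits chosen here fell by smaller amounts than Cycs. Cox7b, a small membrane subunit, measured 8.59, 8.72 and 8.83 in denervated and 9.83, 9.30 and 9.62 in control muscle, and changed by -0.87 ± 0.15 (adjusted p = 0.00209). Cox5a, which sits on the matrix side, measured 14.71, 14.64 and 14.62 against 15.37, 15.39 and 15.35. Here the values within a group agreed closely, and the change of -0.72 ± 0.10 was many times that spread (adjusted p = 0.000774). Cox6b1, which faces cytochrome c on the outer side, measured 14.47, 14.35 and 14.59 against 15.06, 15.04 and 15.14, a change of -0.61 ± 0.11 (adjusted p = 0.00301) that its second probe gave as -0.68.

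The changes of the 3 other subunits were the smallest among the complex IV subunits chosen here. Cox6c measured 14.35, 14.24 and 14.48 against 14.90, 14.70 and 14.80, a change of -0.44 ± 0.12 (adjusted p = 0.0168). Its call was lost without denervated replicate 2 or without control replicate 1, with an adjusted p of up to 0.069. Cox7c fell by 0.43 ± 0.11 (adjusted p = 0.0136). Cox5b, the zinc-binding subunit, measured 15.07, 15.06 and 15.29 against 15.45, 15.35 and 15.45, with a change of -0.27 ± 0.12 that did not pass the test (adjusted p = 0.0903) although the groups did not overlap. The testis isoforms Cox7b2 and Cox8c were above background on no array, and of the 2 probes for the testis isoform Cox6b2 1 was above background on 2 arrays and the other on none. The isoform genes of complex IV that the choice by symbol left out had a median of -0.61 with 7 of 9 lower. They ran from -2.25 for Cox7a1 to 0.08 for Cox8a.

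The assembly factors of complex IV, proteins that are not part of the finished enzyme, split by gene. The first pair makes heme A. Cox10, the farnesyltransferase that starts heme A synthesis, measured 11.51, 11.51 and 11.36 in denervated and 12.55, 13.01 and 12.63 in control muscle. All control values were at least 1 unit above the denervated ones, and Cox10 fell by 1.27 ± 0.14 (adjusted p = 0.000191). Cox15, which carries out the next step, measured 9.39, 9.51 and 9.70 against 9.71, 9.55 and 9.69, so that the groups overlapped and the change of -0.12 ± 0.13 did not pass (adjusted p = 0.489).

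The second set delivers copper. Cox19, a small twin-cysteine protein of the intermembrane space, measured 12.40, 12.53 and 12.32 in denervated and 11.29, 11.40 and 11.31 in control muscle. It rose by 1.08 ± 0.11 (adjusted p = 0.00012), and its deposited signal before any normalization was 6410, 6892 and 6022 against 2212, 2359 and 2279. These signals also carry the greater brightness of the denervated arrays, where the median change of all genes without normalization was 0.34. Cox17, the copper chaperone of the intermembrane space, measured 14.06, 14.04 and 14.00 against 13.66, 13.67 and 13.82. The groups did not overlap but lay close, and the rise of 0.31 ± 0.11 was near the threshold (adjusted p = 0.0459). Cox17 lost its call when any array but that of control replicate 3 was left out, with an adjusted p of 0.0754 to 0.119. Cox11, which brings copper to the Cox1 subunit, moved the other way, with 8.66, 8.56 and 8.64 against 9.32, 8.94 and 9.08 and a change of -0.50 ± 0.13 (adjusted p = 0.0137), and its call was lost without denervated replicate 2. When the arrays were instead shifted to 1 median over all probes, Cox11 changed by -0.23 (adjusted p = 0.183).

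The third set handles the mitochondrially encoded subunits Cox1 and Cox2. Cox18, which pushes the tail of Cox2 across the inner membrane, measured 11.81, 11.92 and 12.05 in denervated and 11.28, 11.24 and 11.34 in control muscle. All denervated values were higher, and Cox18 rose by 0.64 ± 0.11 (adjusted p = 0.00236), with 0.69 by its second probe (10.74, 10.88 and 10.64 against 10.20, 9.87 and 10.14). Cox20, a chaperone of Cox2 that works before Cox18, measured 11.21, 10.97 and 11.27 against 11.28, 10.84 and 11.38. These groups overlapped throughout, and the difference was -0.02 ± 0.17 (adjusted p = 0.945). Cox14, which accompanies newly made Cox1, fell by 0.46 ± 0.12 (adjusted p = 0.0124), and by the same shift to 1 median its change was -0.26 (adjusted p = 0.139). The 3 probes for Cox16 were above background on no array.

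**Figure D3:**
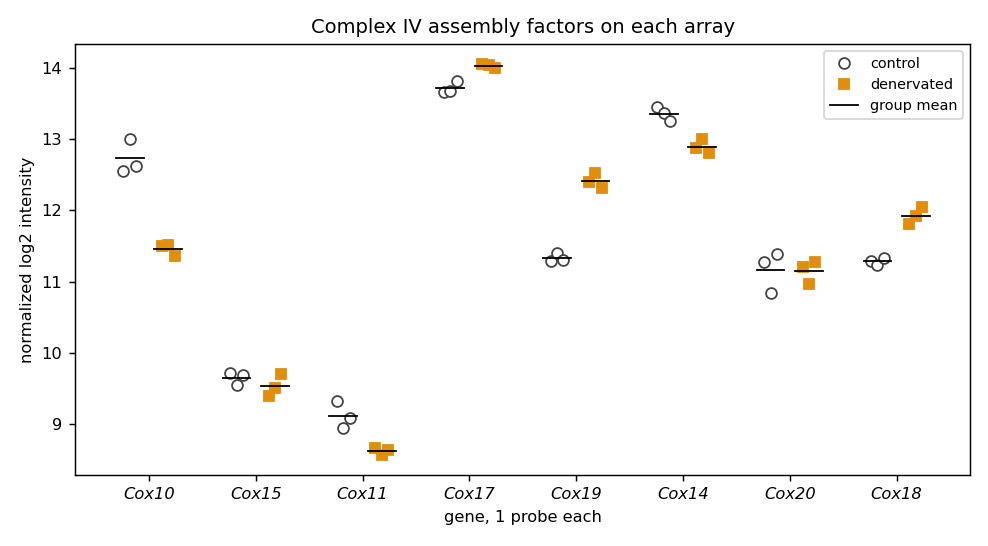
Normalized log2 intensity of the 8 tested assembly factors of complex IV on each array, with group means as lines; heme A factors stand at the left, copper factors in the middle and factors for Cox1 and Cox2 at the right. Cox10 is lower on all denervated arrays by at least 1 unit, Cox17, Cox19 and Cox18 are higher on all, and Cox15 and Cox20 overlap.

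In ATP synthase the fall was spread over every module. The F1 head had a median of -0.82 with 5 of 5 genes lower. The peripheral stalk, which holds the head still, had a median of -0.45 with 4 of 4 lower, the c ring genes had -0.46 with 2 of 3 lower, and the membrane accessory subunits had -0.33 with 2 of 3 lower.

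Within the F1 head the genes divided by size of change. Atp5a1, the alpha subunit, measured 11.59, 11.75 and 11.89 in denervated and 12.87, 12.59 and 12.95 in control muscle, and fell by 1.06 ± 0.14 (adjusted p = 0.000441). Atp5e, the small epsilon subunit of the central stalk, measured 8.37, 8.25 and 8.09 against 9.07, 9.34 and 9.20, and fell by 0.97 ± 0.13 (adjusted p = 0.000448). Neither gene had overlapping groups. Atp5d, the delta subunit beside it, fell by 0.82 ± 0.13 (adjusted p = 0.00128). Atp5c1, the gamma shaft, and Atp5b, the catalytic beta subunit, changed by -0.39 ± 0.14 and -0.31 ± 0.11, with adjusted p of 0.0476 and 0.0445. Alpha and beta alternate in the same hexamer, yet their probes differed in this way. The Atp5b probe had a deposited signal over 60000 on 4 of the 6 arrays, close to the highest signals on the arrays, and such a probe can understate a change.

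In the peripheral stalk all genes fell. Atp5pb, the b subunit that spans it, measured 12.57, 12.64 and 12.69 in denervated and 13.46, 13.57 and 13.39 in control muscle, a change of -0.84 ± 0.11 (adjusted p = 0.000441). Atp5h (subunit d) fell by 0.46 ± 0.11 and Atp5o (subunit OSCP, which joins stalk and head) by 0.36 ± 0.12, with adjusted p of 0.0106 and 0.0351. When the arrays were shifted to 1 median over all probes, neither passed. Atp5h was then at -0.29 (adjusted p = 0.0923) and Atp5o at -0.095 (adjusted p = 0.606). The probes of Atp5j (coupling factor 6) did not give 1 size. The bright probe read 15.25, 15.20 and 15.17 against 15.69, 15.63 and 15.62 and fell by 0.44, the dimmer one read 10.37, 10.24 and 10.20 against 11.44, 11.15 and 11.36 and fell by 1.05, and a further probe was above background on no array. Both measured probes were lower with no overlap, so that the direction was shared and the size was not settled.

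The c ring has 3 genes, Atp5g1, Atp5g2 and Atp5g3, which encode the same mature c subunit behind different import signals. Atp5g1 measured 14.19, 14.23 and 14.27 in denervated and 15.08, 15.08 and 15.17 in control muscle, and fell by 0.88 ± 0.11 (adjusted p = 0.000247). Atp5g3 measured 15.56, 15.43 and 15.51 against 15.86, 15.79 and 15.89, a change of -0.35 ± 0.11 (adjusted p = 0.0297). Both kept their groups apart. The Atp5g3 probe had a deposited signal of 46994 to 59749, and whether its brightness understated the change was not tested. Atp5g2 measured 11.72, 11.60 and 11.92 against 11.77, 12.48 and 12.36, where control replicate 1 lay among the denervated values, and its change of -0.46 ± 0.19 did not pass (adjusted p = 0.0854). The probe sequences were not used here, so that cross-hybridization between these genes was not examined.

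Among the membrane accessory subunits Atp5l (subunit g) fell by 0.43 ± 0.11 (adjusted p = 0.0101). Atp5j2 (subunit f) changed by -0.33 ± 0.12 (adjusted p = 0.0472). Atp5mpl, a small proteolipid, measured 15.09, 14.90 and 15.06 in denervated and 15.35, 15.24 and 15.28 in control muscle and did not pass (-0.27 ± 0.11, adjusted p = 0.0823). Atp5k (subunit e) was above background on 1 array. The count for ATP synthase depended on the processing and on the number of arrays. With all arrays it was 9 after the shift to 1 median over all probes, where Atp5c1, Atp5h, Atp5l and Atp5o lost their calls. It was 10 with the replicate block or with probes detected on at least 1 array, and 11 with no filter. The count fell from 13 to 8 without denervated replicate 2 or without control replicate 3 and to 9 without any of the others. The calls lost by leaving out an array came from Atp5b, Atp5c1, Atp5g3, Atp5j2 and Atp5o, whose changes were -0.39 to -0.31. The 7 calls of complex III held whichever array was left out.

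The size of the change went with the brightness of the probe once the assembly factors were set aside. Over the other 29 tested genes, cytochrome c included, the log2 fold change correlated with the control level across genes (Pearson r = 0.493, Spearman rho = 0.587), the brighter probes having the smaller falls, while over all 37 genes it did not (r = -0.035, rho = 0.166). These points share the same 6 arrays and are different probes, whose brightness depends on their sequence as well as on the mRNA. The median control level was 13.9 for ATP synthase, 14.7 for complex III and 15.1 for complex IV subunits. The part of probe brightness in the differences between the complexes was not tested.

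**Figure D4:**
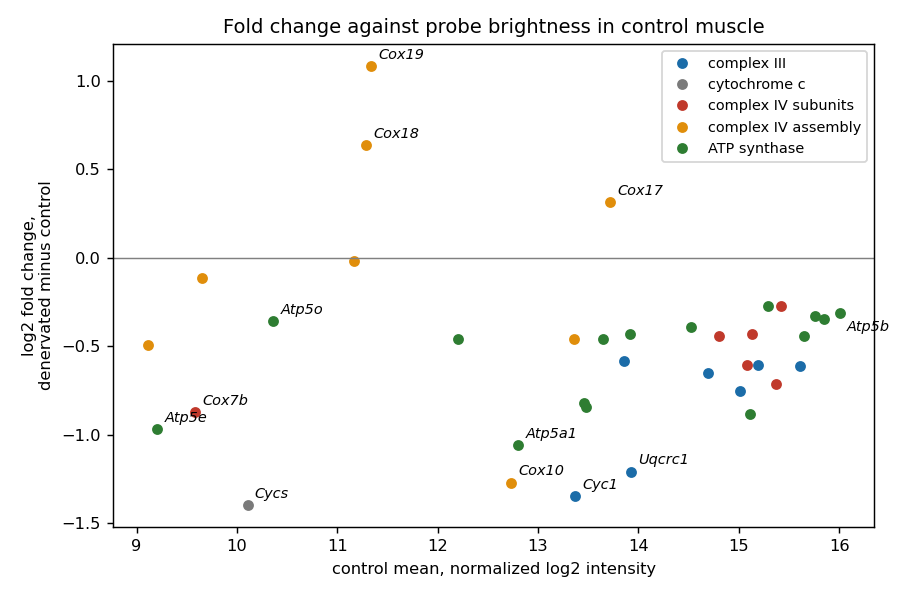
Log2 fold change of the 37 genes against their mean normalized log2 intensity in control muscle, coloured by group of genes. Above an intensity of 14.0 all subunit genes lie between -0.88 and -0.27, and the falls of more than 2-fold belong to probes below that intensity (Cycs, Cyc1, Cox10, Uqcrc1 and Atp5a1).

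Genes that work beside these complexes showed where the pattern continued. Complex I, which feeds electrons into the chain, was represented by the genes named Nduf. Of these 30 of 34 tested were lower and none higher, with a median of -0.64. They were taken by name alone and include Ndufa4 and the pseudogene entry Ndufs5-ps, so they are not all established complex I subunits. The 3 tested genes of complex II (Sdhb, Sdhc and Sdhd) all fell, with a median of -1.002. The median of the genes named Nduf lay close to that of complex III, that of complex II was lower, and ATP synthase had the least negative median of these 5 groups. As these genes come from the same arrays and the same comparison, their medians stand side by side and are not separate evidence.

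The assembly factors outside the chosen names were mostly lower or not called. For complex III, Bcs1l, which inserts the Rieske protein, fell by 0.57 ± 0.12 (adjusted p = 0.00497), and the 3 other tested factors did not pass. Among the other complex IV factors the lowest values belonged to Coa7 at -1.32 ± 0.28, Cmc2 at -0.74 and the copper factor Coa6 at -0.72, and Coa4, a twin-cysteine protein, rose by 0.53. Of the 5 ATP synthase factors 4 were called lower, Atpaf1 among them. Fmc1, which in yeast supports F1 assembly under heat, fell by 1.28 ± 0.13 (adjusted p = 8.66e-05), and Tmem70, which helps build the c ring, fell by 0.86. Atpaf1, the chaperone of the beta subunit, was above background on the control arrays only and at least 1.58-fold lower. It passed the filter through the control arrays alone, so that its direction followed from the filter and its call is no support. The inhibitor Atpif1 did not pass at 0.01 ± 0.17. Of 12 tested genes for mitochondrial structure, import and protein folding 5 fell, 1 rose and 6 were not called, with a median of -0.23. Over all tested genes 21.6% fell, 22.2% rose and 43.8% were called in either direction. Of the 12, the lower ones included the outer membrane channels Vdac3 (-1.01), Vdac2 (-0.93) and Vdac1 (-0.85), and the higher one was the import receptor Tomm22 (0.36). The folding proteins Hspd1, Hspe1 and Hspa9 and the cristae protein Immt did not pass.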

How the data were processed

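The gastrocnemius of 3 denervated and 3 control samples, grouped by the labels, was measured on 6 bead arrays. The authors extracted RNA with TRIzol, depleted ribosomal RNA, labelled cRNA with biotin and summarized the scans with GenomeStudio. The deposited table gave a linear intensity per probe (mean over beads), its standard error, a detection p-value and how many beads were read; the authors' second table of quantile-normalized intensity was an alternative only. The intensity was background-corrected (normexp from detection p, offset 16), quantile-normalized and log2-transformed. Probes with a detection p under 0.05 on at least 3 of 6 arrays were kept (12546 probes), and a gene was its brightest kept probe (8740 genes). Names came from the platform annotation. Groups were compared with lmFit and eBayes (limma 3.58.1, R 4.3.3) with Benjamini-Hochberg adjustment over all kept probes; fold changes include the offset and so understate dim probes. An "at least" fold sets the brighter group's mean against whichever is higher on an array, the dim probe itself or the dimmest probe above background. The methods list an analysis of variance and Student's test for all data together and give a p under 0.05 for the arrays without saying which test was used on them; a test without moderation was run as an alternative. The script was tested on simulated data. The number of arrays limits the precision.

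The genes and lists were chosen with earlier results of these data known. By rule every tested gene was named; values on all arrays were given for the 4 largest changes of each group of genes, for every gene that rose or did not pass, and for genes whose probes differed by over 0.5, and up to 3 genes were named from each other pathway list. The values of Atp5g3 and of the genes named beyond 3 in a list were added after they had been seen. Tried besides were an offset of 50, uncorrected background, shifts to 1 median, the authors' values, other filters, the replicate block, other moderation, the mean of a gene's probes and leaving out each array; a comparison without normalization was added after seeing the data.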

Additional observations from a re-analysis of the deposited data

How the results depend on the processing

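Of the 37 tested genes 21 kept their call and 35 their direction under all 18 alternatives set up at the start. The 7 calls of complex III held in each of these, and the 3 distances between the medians of the complexes kept their sign except as follows. The smallest, between complex IV subunits and ATP synthase, was -0.0058 with probes detected on at least 1 array and 0.0085 with no filter, where the dim probes of testis isoforms enter the subunits.

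Shifting arrays to 1 median over all probes moved the median of all genes to 0.20, left 1116 of 4160 calls lower (1892 of 3829 otherwise), 1 lower assembly factor and their median at 0.17, with Cox15 at 0.14 and Cox20 at 0.21. Shifting by the probes detected on all arrays gave 2247 of 4004 calls lower and medians of -0.92 (complex III), -0.81 (complex IV subunits), -0.10 (assembly) and -0.71 (ATP synthase). Without normalization 5847 genes were called, the median of all genes was 0.34, the lower counts were 3 (complex IV subunits), 1 (assembly) and 6 (ATP synthase), and the medians were -0.40, -0.26, 0.39 and -0.20 in the order above. Cox15 was then 0.35, Cox20 0.43, Cox11 0.033, Atp5o 0.15 and Atp5g2 0.010, of which Cox20 and Cox15 were above the median of all genes and the others below it. With no filter the medians were -0.43 for complex IV subunits and -0.016 for assembly, and with probes detected on at least 1 array -0.44 for complex IV subunits. The cause was not tested.

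Leaving out 1 array at a time, the lower count of ATP synthase was 8 to 9, and the medians were -0.73 to -0.62 (complex III), -0.17 to -0.0026 (assembly) and -0.46 to -0.42 (ATP synthase). The median of complex III was -0.29 to -0.20 from that of ATP synthase and -0.17 to -0.083 from that of complex IV subunits, and the median of complex IV subunits was -0.13 to -0.070 from that of ATP synthase. All genes called were 2993 to 3449 and the genes of these complexes called lower 22 to 25. Cox20 was -0.18 to 0.092 (0.075 without denervated replicate 2, 0.038 without control replicate 1, 0.092 without control replicate 3).

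The labels do not say whether a shared replicate number marks 1 mouse. Same-numbered samples deviated from their group means with correlations of -0.02, 0.16 and 0.16, and the other pairings gave -0.235 to 0.132. With 3 samples per group these values cannot decide whether the numbers are pairs. The main comparison took no pairs, and the replicate block was an alternative. With the replicate block 3794 genes were called, and the lower counts were 7, 5, 3 and 10 in the order above, with Cox17, Atp5b, Atp5c1 and Atp5j2 no longer called.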
